A study of Mus musculus with 10 samples.

Results

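The transcripts described here code for the proteins of the cytosolic ribosome. They were chosen by name: the gene symbols of the deposited series table that consist of Rps or Rpl followed by a number and, in some, by a, x, l or p, with the Rps6k kinases left out. This gave 82 of the 21193 rows of that table, 31 of the small subunit, 48 of the large subunit and 3 of the stalk of the large subunit. On the arrays they had 116 of 41174 probes. Of the 82 genes 54 had 1 probe, 23 had 2, 4 had 3 and 1 had 4. The table held 96 symbols that start with Rps or Rpl, and 14 of them fell outside the naming rule. The choice of members used no measured value.

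RNA came from the livers of 10 male mice of the strain C57BL/6NCrSlc, 1 array per mouse, all of them on a high-cholesterol diet. The 5 control mice received no mulberry leaf extract, and the 5 mulberry mice received it as their drinking water for 4 weeks. The labels give no ages. The arrays were one-colour Agilent arrays, read with the dye Cy3 from cRNA prepared out of 500 ng of total RNA. The p-values here measure the spread between these mice and arrays.

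A ribosome joins a small subunit, which reads the messenger RNA, to a large subunit, which forms the peptide bond, and each subunit needs most of its proteins in equal numbers. Many of the messenger RNAs for these proteins begin with a cytosine followed by a run of pyrimidines, the terminal oligopyrimidine tract, through which mTOR and the RNA-binding protein Larp1 control their translation and stability together. The liver makes and secretes large amounts of plasma protein, and several ribosomal protein genes serve as reference genes in quantitative PCR of liver.

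The sequence around the annotated transcript start is given for some of the members whose values are described below, most of them chosen because they hold a pyrimidine run, which a minority of the members' starts do. A RefSeq promoter table of mouse assembly GRCm38.p6 held 62 of the 82 genes, with 74 starts. A run of at least 8 pyrimidines reaching within 5 bases of the start was present at 24 of the 74 starts (32.4%), against 9.38% of all 32851 starts in the table. Each stretch below runs 5′ to 3′ on the transcript strand from 15 bases before the start to 15 bases from it onward, and the capitals mark the pyrimidine run.
Rps27, chr3:90213634-90213663, minus strand: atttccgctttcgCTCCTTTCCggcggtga
Rps27l, chr9:66946071-66946100, plus strand: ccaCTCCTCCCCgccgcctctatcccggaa
Rps15a, chr7:118116133-118116162, minus strand: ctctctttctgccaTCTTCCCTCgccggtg
Rps26, chr10:128626492-128626521, minus strand: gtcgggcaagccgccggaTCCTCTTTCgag
Rps6, chr4:86857353-86857382, minus strand: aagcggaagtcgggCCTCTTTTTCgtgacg
Rplp2, chr7:141447636-141447665, plus strand: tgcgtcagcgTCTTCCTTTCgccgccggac
Rpl22l1, chr3:28805493-28805522, plus strand: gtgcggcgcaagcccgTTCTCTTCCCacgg
Rplp0, chr5:115559452-115559481, plus strand: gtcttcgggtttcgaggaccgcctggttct
Rpl36al, chr12:69184053-69184082, minus strand: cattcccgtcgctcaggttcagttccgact

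The last 2 of these, at the annotated starts of Rplp0 and Rpl36al, hold no run of that length, which says only that these letters are not in this window. Rps27l had 2 annotated starts, of which the first is shown and the second held no such run, nor did either start of Rpl22. The letters CTTTCC, which can lie within a pyrimidine run as in Rps27, were found on the transcript strand from 10 bases before to 20 bases after the start at 10 of 74 member starts (13.5%) and at 1.28% of all starts. In the 250 bases before the start, CGGAAG, the core letters bound by ETS family factors, occurred on either strand at 34 of 74 member starts (45.9%) and at 13.6% of all starts. The letters TATAAA occurred there on either strand at 5.41% of member starts and 12.4% of all starts, and the E-box letters CACGTG at 9.46% and 6.02%. These shares are descriptions of the letters, with no test.

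The share of probes well above background was 54.4% to 62.3% across arrays, 0 spots were saturated, and the 75th percentile of the signal ranged from 152.8 on mulberry 3 to 283.3 on mulberry 1. All arrays carried hepatocyte transcripts: 12 of 15 listed hepatocyte markers (albumin, apolipoproteins and liver enzymes) were measurable. Macrophage, lymphocyte and stellate cell markers stood apart on mulberry 1 and mulberry 5, the stellate mean at 1.02 and 1.09 (log2, relative to the control mean). Other lists did not do so on both arrays. Endothelial means were 0.16 and 0.19 (control 5 at 0.18), bile duct means 0.64 and 0.11 (control 5 at 0.25). Red cell means were -0.26 and -0.40, with mulberry 4 at -0.39. The mean of 20 macrophage markers lay 1.93 and 1.97 (log2) above the control mean on mulberry 1 and mulberry 5. It lay between -0.73 and 0.11 on the other 3 mulberry arrays, against -0.78 to 0.92 on the control arrays. The mean of 17 lymphocyte markers lay at 2.01 and 1.75 on mulberry 1 and 5 and between -0.41 and 0.72 on control arrays, and the mean of the 12 hepatocyte markers was lowest on mulberry 1, at -1.04. In RNA from whole tissue, fewer cells of a type and less RNA per cell cannot be told apart. The control numbers differ between the scanner tables and the deposited series table: over 11151 genes, the table's columns for control 1 to 5 followed the scanner arrays of control 5, 1, 2, 3 and 4 (r of 0.95 to 0.98 for values relative to each gene's mean, against -0.51 to -0.06 with the same number). The mulberry columns followed their own arrays (r of 0.97 to 0.99). Which numbering is the intended one is not known, both hold the same 5 controls, and numbers here are those of the scanner tables unless the series table is named.

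No ribosomal protein transcript differed between mulberry and control livers by more than the spread between mice. Of the 82 genes 80 had a probe well above background on enough arrays to be tested, and 0 of them passed the test (limma with Benjamini-Hochberg adjustment over 17847 genes, adjusted p under 0.05; smallest adjusted p of a member 0.897). The background was 0 called genes of 17847, or 0%. An unadjusted p under 0.05 was found for 0 of the 80 members and for 5.18% of all genes. The 80 differences, mulberry minus control on the log2 scale, ran from -0.20 to 0.21 with a median of 0.01, where the median of all tested genes was -0.02. The difference was above 0 for 44 members and below 0 for 36, and it was above 0 for 47% of all genes. In 66 of the 80 members its size was under 0.1.

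The intervals set a bound on what these arrays could have missed. For all 80 members the 95% interval of the difference lay within 1.5-fold in either direction, as it did for 46.7% of all tested genes, and the bounds reached -0.53 and 0.54. The groups overlapped in all 80 members, and 0.728% of all genes had groups that did not overlap. The SD over the 10 arrays had a median of 0.15 among members (0.06 to 0.31) and of 0.32 among all tested genes. The mean level of 79 of the 80 members was above the 75th percentile of the arrays, and Rpl21 was the exception. The bounds depend on the processing. The count within 1.5-fold was 71 with arrays centred on their median, and 19 and 6 within scan days 1 and 2, which held 5 arrays each. It was 9 with the slide as a fixed block, where the group difference rests on slide 3 alone, with mulberry 1 its only mulberry array. It was 3 with normexp background correction, and 80 when mulberry 4 was left out of that setting. Other scalings, given below, moved the members together.

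**Figure D1:**
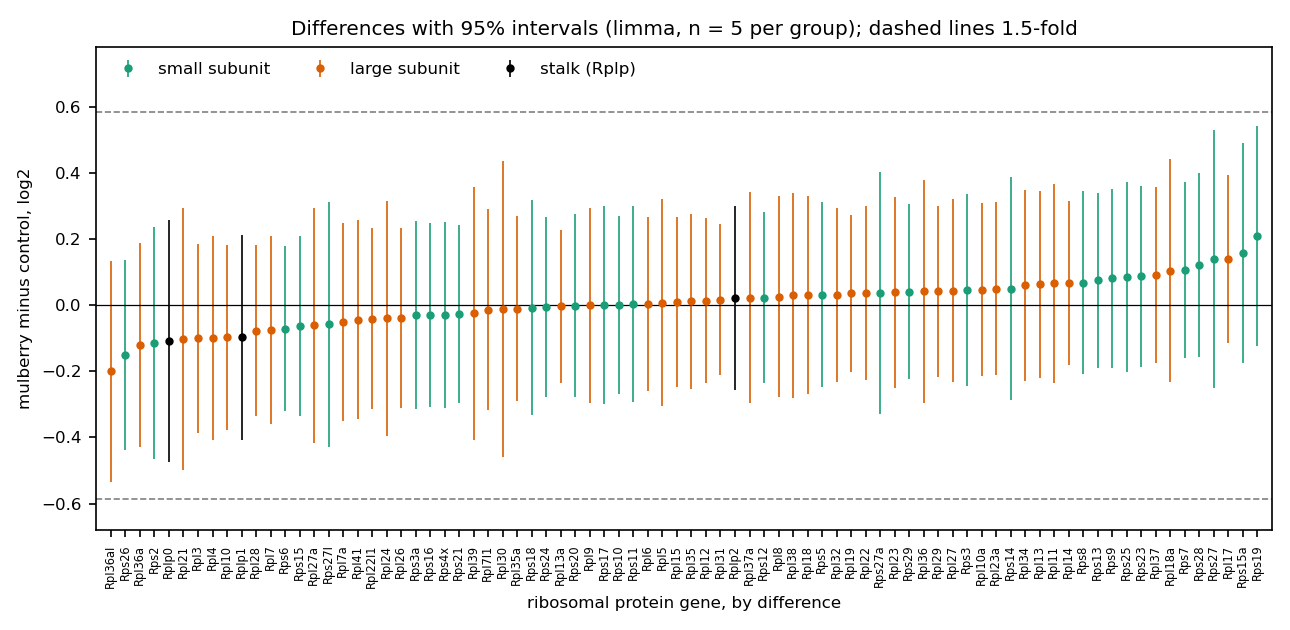
Difference between the group means (mulberry minus control, log2, vertical axis) of each of the 80 tested ribosomal protein genes, ordered by difference along the horizontal axis, with 95% intervals from limma (5 arrays per group). Points are coloured by subunit, the dashed lines mark 1.5-fold, and every interval crosses 0 and stays inside the dashed lines.

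Within the small subunit, 17 of 31 members had a difference above 0 and 14 below, with a median of 0.02 and 0 called. The member with the smallest p in the higher direction was Rps19, a protein needed for maturation of the small subunit's RNA whose human counterpart is mutated in Diamond-Blackfan anaemia. Its level, in log2 units with 0 at the 75th percentile of the array, was 2.18, 1.63, 1.52, 1.85 and 1.67 in control 1 to 5 and 1.85, 1.97, 2.20, 2.07 and 1.83 in mulberry 1 to 5. Control 1 was nearly as high as mulberry 3, the highest array, and controls 2, 3 and 5 lay below all mulberry arrays. The difference was 0.21 ± 0.15 (SE, 95% interval -0.12 to 0.54, limma adjusted p = 0.897). It was 0.40 on the arrays of scan day 1 and -0.056 on those of scan day 2, and it was -0.17 within slide 3, which held 2 control arrays and 1 mulberry array.

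Rps15a and Rps27 were also among the members with the smallest p in that direction. Rps15a read 5.47, 5.18, 5.09, 5.57 and 5.10 in control 1 to 5 and 5.73, 5.18, 5.42, 5.38 and 5.49 in mulberry 1 to 5. Mulberry 1 was the highest array, and controls 1 and 4 lay within the upper mulberry range. The difference was 0.16 ± 0.15 (95% interval -0.18 to 0.49), and it was 0.33 on the arrays of scan day 1 and -0.093 on the others. Rps27, a zinc finger protein of the small subunit whose start is shown above, read 7.89, 7.31, 7.37, 7.65 and 7.22 in the controls and 7.41, 7.60, 8.07, 7.44 and 7.62 in the mulberry arrays. Mulberry 3 and control 1 were its highest arrays, and the difference of 0.14 ± 0.18 (95% interval -0.25 to 0.53) was smaller than the SD within either group (0.28 and 0.27).

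Rps28 and Rps7 completed the small subunit members with small p in that direction. Rps28 had a difference of 0.12 ± 0.13 (95% interval -0.16 to 0.40), with means of 6.97 ± 0.12 (SD, n = 5) in control and 7.09 ± 0.17 in mulberry arrays. Rps7, which also binds Mdm2, was at 7.18 ± 0.13 and 7.28 ± 0.13. In the lower direction stood Rps26, which lines the channel where messenger RNA leaves the ribosome.

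Rps26 read 5.56, 5.58, 5.51, 5.21 and 5.48 in control 1 to 5 and 5.18, 5.26, 5.61, 5.26 and 5.28 in mulberry 1 to 5. All mulberry arrays except mulberry 3 lay below all control arrays except control 4. The difference was -0.15 ± 0.13 (95% interval -0.44 to 0.14, limma adjusted p = 0.897). Rps2, at the messenger entry side of the small subunit, had means of 8.85 ± 0.16 in control and 8.74 ± 0.29 in mulberry arrays and a difference of -0.11 ± 0.16.

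Rps6 is the ribosomal protein that S6 kinases phosphorylate when mTOR is active. Its transcript read 5.71, 5.55, 5.67, 5.63 and 5.58 in control 1 to 5 and 5.39, 5.47, 5.74, 5.60 and 5.57 in mulberry 1 to 5. The groups overlapped, with mulberry 1 lowest and mulberry 3 highest of the 10, and the difference was -0.07 ± 0.11 (95% interval -0.32 to 0.18). Rps27a, made as a fusion with ubiquitin, had means of 7.07 ± 0.07 in control and 7.11 ± 0.34 in mulberry arrays; mulberry 1 at 6.71 and mulberry 3 at 7.64 were its extremes.

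The large subunit had 46 tested members, 26 with a difference above 0 and 20 below, with a median of 0.01 and 0 called. Rpl17, which sits at the exit of the peptide tunnel, had the smallest p of these in the higher direction, with levels of 6.53, 6.23, 6.29, 6.24 and 6.25 in control 1 to 5 and 6.41, 6.41, 6.62, 6.38 and 6.42 in mulberry 1 to 5. All 5 mulberry arrays lay above 4 of the 5 control arrays, and control 1 was above 4 of the mulberry arrays. The difference was 0.14 ± 0.12 (95% interval -0.11 to 0.39, limma adjusted p = 0.897).

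In the lower direction Rpl36al came first. It is the autosomal copy of the X-linked Rpl36a and codes for a nearly identical protein. It read 5.31, 5.49, 5.51, 5.18 and 5.60 in control 1 to 5 and 4.86, 5.43, 5.42, 5.32 and 5.06 in mulberry 1 to 5. Mulberry 1 and mulberry 5, the arrays with high macrophage and lymphocyte markers, were its lowest arrays, and the other 3 lay within the control range. The difference was -0.20 ± 0.15 (95% interval -0.53 to 0.13, limma adjusted p = 0.897), and the part of those cell markers in it was not tested. After quantile normalization control 4 (5.07) and control 1 (5.15) were the lowest arrays of Rpl36al, with mulberry 1 at 5.16 and mulberry 5 at 5.19. Rpl3, next to the peptidyl transferase centre, was at 5.74 ± 0.17 and 5.64 ± 0.14, and Rpl10, which joins late in assembly, at 6.50 ± 0.09 and 6.40 ± 0.19.

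**Figure D2:**
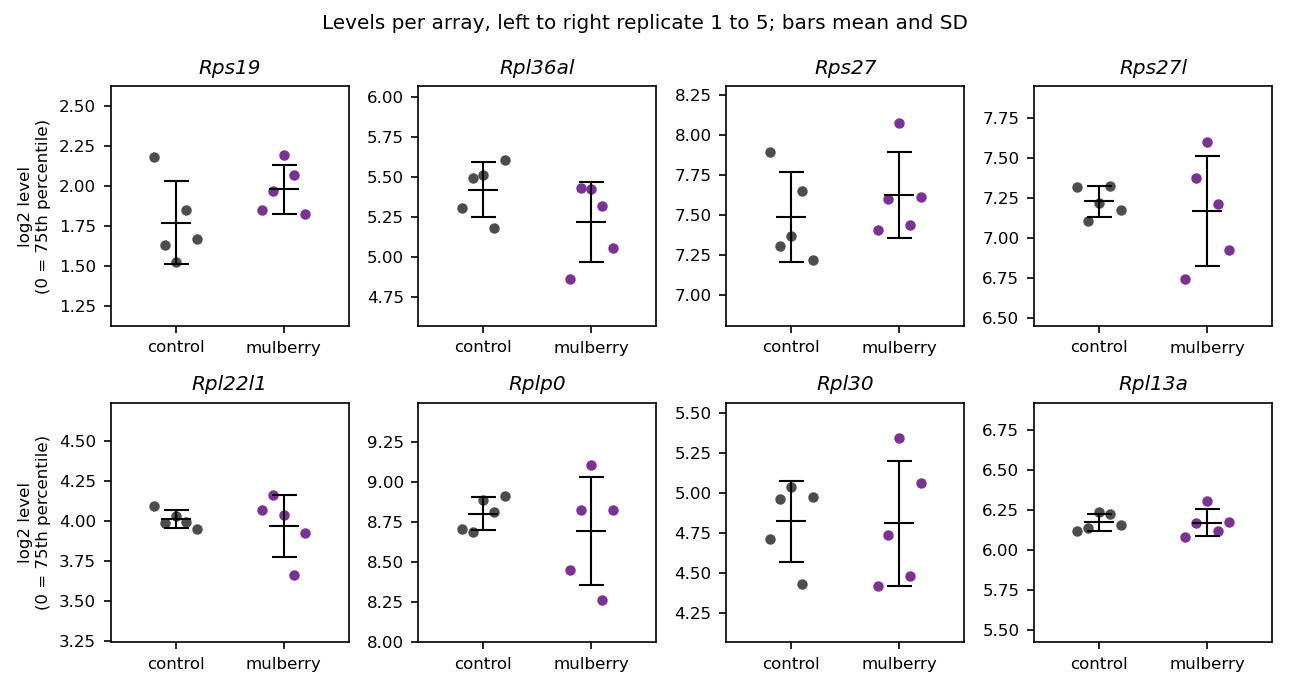
Log2 levels (vertical axis, 0 at the 75th percentile of each array) of 8 ribosomal protein genes in 5 control and 5 mulberry arrays, with replicates 1 to 5 from left to right in each group; bars give the mean and SD. The vertical axes span the same range in log2 units, and in each gene the groups overlap.

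The stalk, which recruits translation factors to the large subunit, gave 1 member above 0 and 2 below. Rplp0, the base of the stalk and a common reference gene, read 8.70, 8.68, 8.89, 8.81 and 8.91 in control 1 to 5 and 8.45, 8.82, 9.10, 8.26 and 8.82 in mulberry 1 to 5. The mulberry arrays spanned a wider range on both sides of the controls, with mulberry 4 lowest and mulberry 3 highest. The difference was -0.11 ± 0.17 (95% interval -0.47 to 0.26). Rplp1 had a difference of -0.10 ± 0.14 and Rplp2 of 0.02 ± 0.13.

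Rpl5 and Rpl11 form, with the small RNA of the large subunit, a particle that can bind Mdm2 and release p53 when assembly is disturbed. Rpl5 had means of 7.73 ± 0.16 in control and 7.73 ± 0.22 in mulberry arrays, and its difference had a 95% interval of -0.31 to 0.32. Rpl11 had means of 7.77 ± 0.14 and 7.83 ± 0.20, and a 95% interval of -0.24 to 0.37.

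Some ribosomal proteins have a second gene copy with a tissue-restricted or minor product. The list of such pairs held 17 symbols, of which 13 were tested, 2 with a difference above 0 and 11 below, a median of -0.04 and 0 called. This split turned to 12 above and 1 below after quantile normalization and was 7 and 6 without mulberry 1 and mulberry 5. Rps27l, the p53-responsive copy of Rps27, read 7.32, 7.11, 7.22, 7.33 and 7.17 in control 1 to 5 and 6.74, 7.37, 7.60, 7.22 and 6.93 in mulberry 1 to 5. As for Rpl36al, mulberry 1 and mulberry 5 were the lowest arrays, while mulberry 3 was the highest. The difference was -0.06 ± 0.17 (95% interval -0.43 to 0.31).

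Rpl22l1, the copy of Rpl22, read 4.09, 3.99, 4.03, 3.99 and 3.95 in control 1 to 5 and 4.06, 4.16, 4.03, 3.66 and 3.93 in mulberry 1 to 5, with mulberry 4 alone outside the range of the others by more than 0.1. Its difference was -0.04 ± 0.12, and that of Rpl22 was 0.04 ± 0.12. Rpl7l1 (-0.01 ± 0.14) and Rpl7 (-0.08 ± 0.13), and Rpl39 (-0.03 ± 0.17), Rpl26 (-0.04 ± 0.12) and Rps4x (-0.03 ± 0.13), had differences smaller than their SE.

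The muscle copy Rpl3l and the copy Rpl39l, known from testis, were the 2 members not tested. The Rpl3l probe was well above background on 0 of 5 control arrays and 1 of 5 mulberry arrays. Of the Rpl39l probes, the first was above background on 0 arrays, and the second on 2 control and 3 mulberry arrays. Probe sequences were not used here, so signal from close copies or processed pseudogenes, which are many for ribosomal proteins, cannot be separated from that of the named gene.

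Of 10 ribosomal protein genes listed as reference genes, all tested, 5 had a difference above 0 and 5 below, with a median of 0.01 and differences between -0.11 and 0.09. After quantile normalization 9 were above 0 and 1 below. Rpl13a read 6.12, 6.14, 6.24, 6.22 and 6.15 in control 1 to 5 and 6.09, 6.17, 6.31, 6.12 and 6.17 in mulberry 1 to 5. The groups overlapped almost fully, and its SD over the 10 arrays was 0.07, among the 3 smallest of all members under the 75th percentile. Its difference was -0.0039 ± 0.11 (95% interval -0.24 to 0.23).

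Rpl19, a bridge between the subunits, had an SD of 0.08 and Rpl31 of 0.06 under that scaling, Rplp0 of 0.24 and Rps18 of 0.19. The order depended on the scaling: after quantile normalization the SD was 0.14 for Rpl13a, 0.18 for Rpl19, 0.14 for Rplp0 and 0.18 for Rps18, and of these genes only Rpl31 (0.07) was still among the 3 smallest. The differences of the remaining reference genes were 0.03 ± 0.12 for Rpl32, -0.10 ± 0.14 for Rpl4, -0.03 ± 0.13 for Rps16, 0.04 ± 0.13 for Rpl27, 0.04 ± 0.12 for Rps29 and 0.09 ± 0.12 for Rpl37. The largest SD under the 75th percentile belonged to Rpl30 (0.31), Rpl21 (0.27) and Rps27 (0.27), and after quantile normalization these had 0.31, 0.28 and 0.22.

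Of the 116 member probes 112 passed the filter, and 0 of them passed the test over 23243 probes (limma; background 0%), with 0 at an unadjusted p under 0.05 against 4.96% of all probes. A second Rps15a probe was above background on 0 arrays. Among 26 members with several tested probes, the probes gave differences of the same sign in 16 and of opposite signs in 10, with gaps between the lowest and highest of 0.0050 to 0.22 and a median gap of 0.05. The gap was widest for Rpl37, whose probes gave 0.09 ± 0.12 and -0.13 ± 0.24, the latter from a probe with a mean level of -4.74. The probes of Rps25 gave 0.08 ± 0.13 and -0.11 ± 0.17, those of Rpl36a ran from -0.12 to 0.05, those of Rpl29 from -0.07 to 0.04, and those of Rpl7a from -0.17 to -0.05.

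**Figure D3:**
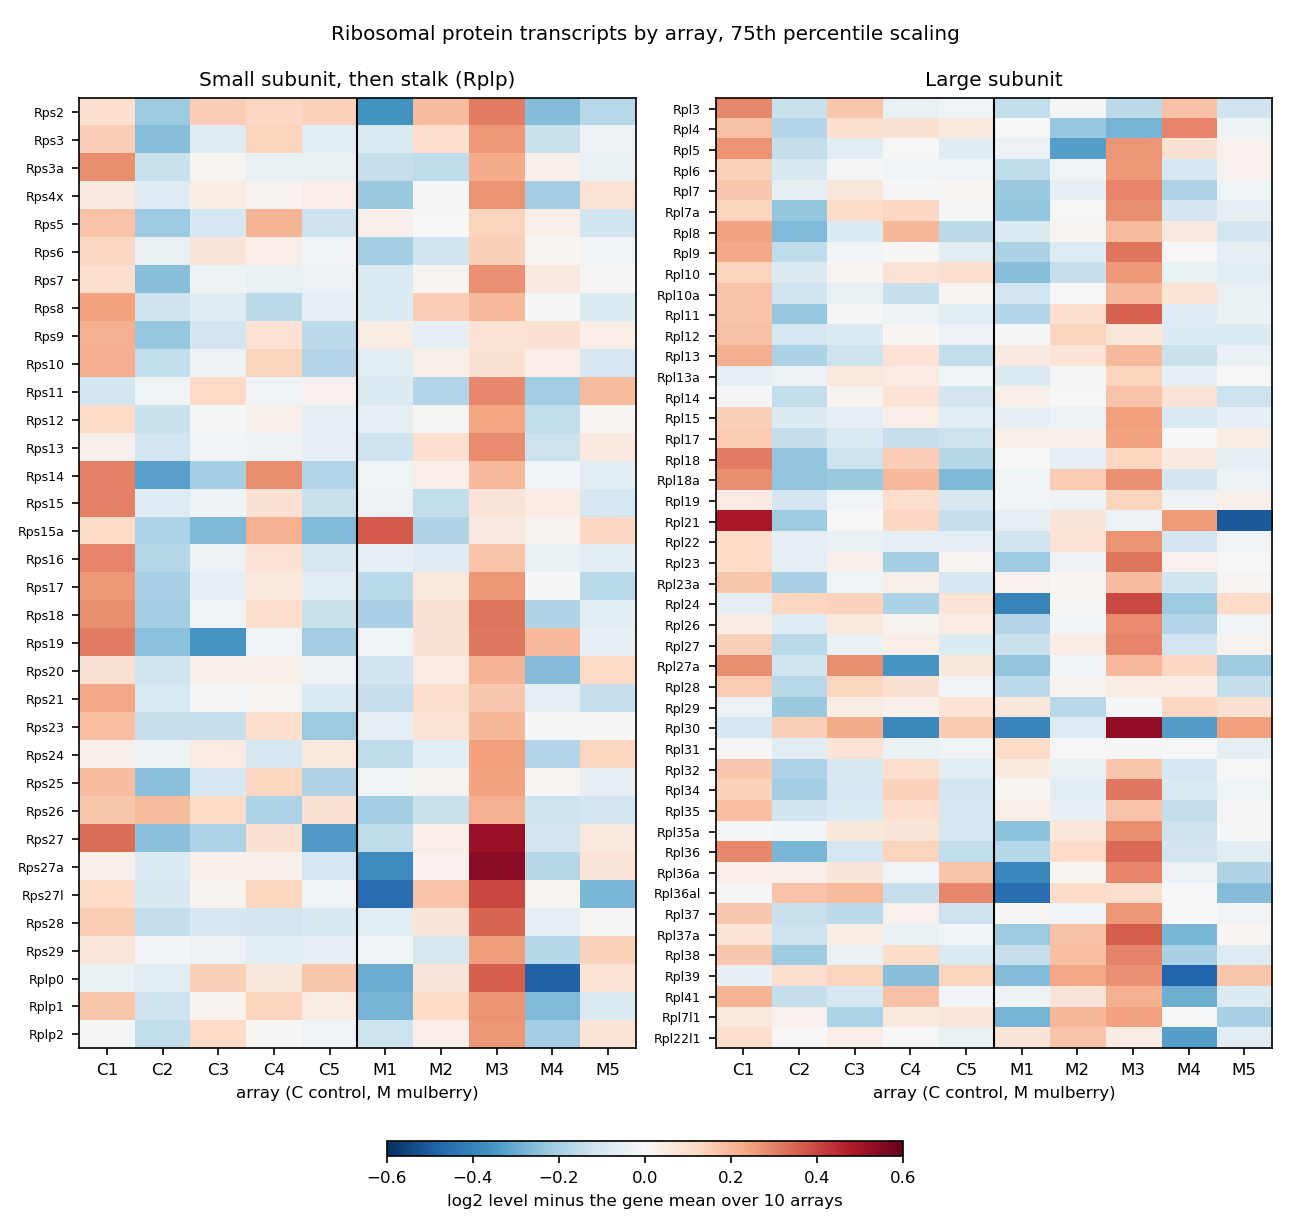
Log2 level of each of the 80 tested ribosomal protein genes (rows) in each array (columns, C1 to C5 control, M1 to M5 mulberry) minus the mean of that gene over the 10 arrays, after scaling to the 75th percentile. Red is above and blue below the gene mean; most rows are red on C1 and M3 and blue on C2 and M1.

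The members varied together from array to array more than between groups. Mulberry 3 was the highest array for 54 of 80 members and control 1 for 19, while control 2 was the lowest for 28, mulberry 1 for 22 and mulberry 4 for 14. The mean over members, relative to the control mean, was 0.15, -0.12, -0.01, 0.03 and -0.05 on control 1 to 5 and -0.11, 0.02, 0.23, -0.07 and -0.03 on mulberry 1 to 5. Pairs of members had a median Pearson r of 0.55 over the 10 arrays, and 89.0% of 3160 pairs were above 0. After the member mean of each array was taken out the median was -0.02. Taking out the mean of these same members brings that value near 0 by itself, so it does not show that nothing else was shared. All points share the scaling of their array, so these values are a description.

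Which arrays were high depended on the scaling. After quantile normalization the member means were 0.05, 0.04, -0.05, -0.04 and 0.00 on control 1 to 5 and 0.29, -0.03, 0.08, 0.11 and 0.14 on mulberry 1 to 5. All mulberry arrays except mulberry 2 then lay above every control array. The group difference of the member mean was 0.12, against 0.01 under the 75th percentile. Mulberry 1, the lowest mulberry array under the 75th percentile, was then the highest, and it was the highest array for 58 of 80 members. With equal summed signal on all arrays, a scaling added after the data were seen, mulberry 1 was at 0.28 and mulberry 3 at 0.06. The members made up 5.58% to 6.18% of the summed signal of control arrays and 5.81% to 6.98% of that of mulberry arrays, with mulberry 1 at the top.

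The split of members between higher and lower moved with it. It was 44 higher and 36 lower under the 75th percentile, 2 and 78 when arrays were centred on their median, and 59 and 21 with the 75th percentile of the probes detected on all arrays. It was 75 and 5 after quantile normalization and 76 and 4 with equal summed signal. The median differences were 0.01, -0.14, 0.04, 0.13 and 0.12 in that order, where all tested genes had medians of -0.02, -0.17, 0.02, -0.02 and 0.09. Under none of these 5 scalings did a member pass the test, so no direction for the family is given here.

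The quantile-normalized split was also taken without the arrays with high macrophage and lymphocyte markers. Without mulberry 1 and mulberry 5 it was 59 higher and 21 lower with a median of 0.05, where all tested genes had 0.01 and 51.5% higher. Under the 75th percentile it was 63 and 17, also with a median of 0.05. All tested genes then had a median of 0.06 with 61.0% higher. The member median was thus close to that of genes in general, while a larger share of the members was higher. After quantile normalization 79 of 80 intervals lay within 1.5-fold (background 51.3%), and 1 member had an unadjusted p under 0.05 (background 5.1%).

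**Figure D4:**
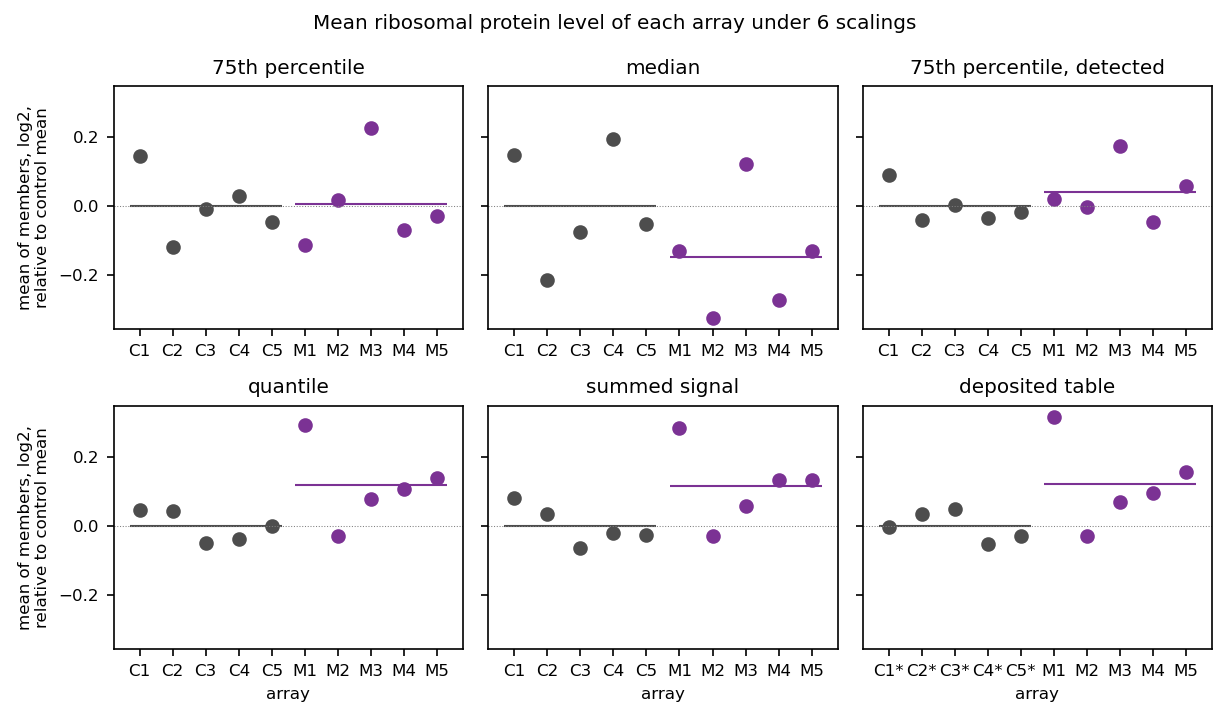
Mean log2 level of the ribosomal protein genes on each array (points; C1 to C5 control in grey, M1 to M5 mulberry in purple) relative to the mean of the control arrays, under 6 scalings; lines mark the group means. M1 is the lowest mulberry array in the first panel and the highest after quantile normalization, with equal summed signal and in the deposited table. In that last panel the starred C1* to C5* are the table's own column numbers, which followed the scanner arrays C5, C1, C2, C3 and C4.

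In the deposited series table, whose normalization the labels and headers do not state, 76 of 82 members were higher and 6 lower, with a median of 0.13, and 0 passed the test (limma; background 0%). All rows had a median of -0.004, with 48.6% higher. An unadjusted p under 0.05 was found for 10 members, all with values above 0, where 4.9% of all rows had such a p in either direction and 2% were higher. These were Rps19, Rps28, Rpl11, Rps7, Rps13, Rpl3l, Rps27, Rpl37a, Rps23 and Rpl17, of which Rpl11, Rps13, Rpl3l, Rpl37a and Rps23 are named here for that p, after their values were seen. Rpl3l and Rpl39l, above background on too few arrays to be tested, are among the 82; over the 80 members tested on the scanner tables the table gave 74 higher and 6 lower, a median of 0.12 and 9 with such a p.

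Rps19 read 12.64, 12.95, 12.75, 12.60 and 12.94 (log2 of the table's value) in the table's columns for control 1 to 5 and 13.45, 12.97, 13.10, 12.98 and 13.08 in mulberry 1 to 5. All 5 mulberry arrays lay above all control arrays in that table, mulberry 2 (12.97) only just above the table's control 2 (12.95). Rps13 also parted the groups there, with a highest control of 13.91 and a lowest mulberry array of 13.93. The share of all rows of that table without overlap was not counted, so this split is a description only. The difference of Rps19 was 0.34 ± 0.12 (95% interval 0.08 to 0.60, limma adjusted p = 0.889). Without mulberry 1 and mulberry 5 the member median of the table was 0.04 with 60 higher and 22 lower, and 1 member had an unadjusted p under 0.05, as did 7.96% of all rows. All rows then had a median of 0.004, with 51.1% higher.

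The file headers give 2 scan days and 4 slides. Scan day 1 held controls 2, 3 and 5 and mulberry 3 and 5, and scan day 2 the other 5 arrays. Slide 3, with controls 1 and 4 and mulberry 1, was the only slide that held both groups. A fit with the slide as a fixed block therefore takes its group difference from that slide alone. Under the 75th percentile the member median was 0.17 within scan day 1, with 70 of 80 above 0, and -0.15 within scan day 2, with 4 of 80 above 0. All tested genes had medians of 0.01 and -0.04 on those days, with 51.8% and 44.9% above 0. Within slide 3 the member median was -0.21 and that of all tested genes -0.25. After quantile normalization the member median within scan day 1 was 0.13, close to the 0.12 within the other day, and slide 3 gave 0.31. All tested genes then had medians of -0.01, -0.03 and -0.16.

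Beyond the shift shared by most members, a second pattern followed the scan day. Each slide was scanned on a single day, so the days cannot be told apart from the slides they held. The first principal component held 51.5% of the variance of the 80 members, with 77 of them on the same side. The second held 23.0%, and on it the 5 arrays of scan day 1 scored between -0.78 and -0.35, mulberry 2 at -0.14 and the other 4 arrays of scan day 2 between 0.71 and 0.87.

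A fit with group and scan day called 0 members between the days (limma; background 2 genes of 17847, 0.0112%). The largest day 2 minus day 1 values belonged to Rpl30 (-0.54 ± 0.13, adjusted p = 0.231), Rpl21 (0.39 ± 0.14, adjusted p = 0.373), Rpl24 (-0.35 ± 0.13, adjusted p = 0.385) and Rpl39 (-0.33 ± 0.15, adjusted p = 0.505). Rpl24 is named here for this value after it was seen. Rpl30, which in yeast controls the splicing of its own transcript, read 4.71, 4.96, 5.04, 4.43 and 4.97 in control 1 to 5 and 4.42, 4.74, 5.35, 4.48 and 5.06 in mulberry 1 to 5. Its 5 arrays of scan day 1 all lay above its 5 arrays of scan day 2. The group difference was -0.01 ± 0.20.

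**Figure D5:**
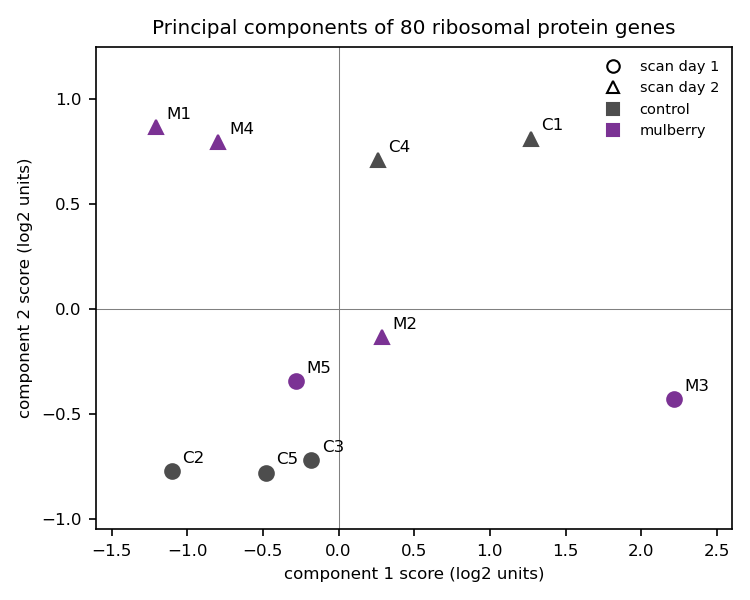
Scores of the 10 arrays on the first (horizontal) and second (vertical) principal component of the 80 ribosomal protein genes, in log2 units. Grey is control and purple mulberry, circles are scan day 1 and triangles scan day 2; the groups mix on both axes, and the second axis parts the scan days except for mulberry 2.

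Other genes of the ribosome and of translation were read from lists, and 0 genes of any of these lists passed the test in either direction. Of the ribosomal proteins that the naming rule misses, Rpsa had a difference of -0.08 ± 0.12, Fau of 0.09 ± 0.16 and Rack1 of 0.01 ± 0.13. The level of Fau, a ubiquitin-like fusion of a small subunit protein, correlated with the member mean at r = 0.91 over 10 arrays. Proteins of the mitochondrial ribosome had 9 of 78 differences above 0 and 69 below, with a median of -0.08, against 44 and 36 in the cytosolic set. Those with the smallest p in each direction were Mrps27 (-0.33 ± 0.16) and Mrps18b (-0.26 ± 0.16) below 0 and Mrpl27 (0.05 ± 0.13) and Mrps34 (0.05 ± 0.17) above.

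That split also moved with the arrays and the scaling: 63 of 78 mitochondrial members were above 0 without mulberry 1 and mulberry 5, and 25 of 78 after quantile normalization. Of all tested genes 61.0% were above 0 without those arrays and 45.8% after quantile normalization. Mrps27 read -0.24 on mulberry 1 and -0.03 on mulberry 5, against 0.46 to 0.55 on the control arrays. The difference between the cytosolic and mitochondrial sets was not tested.

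Translation initiation factors had 7 of 31 differences above 0, with a median of -0.08 (12 of 31 after quantile normalization and 25 of 31 without mulberry 1 and mulberry 5), led in size by Eif5 (-0.32 ± 0.28), Eif2s1 (-0.20 ± 0.14) and the scaffold Eif4g1 (-0.20 ± 0.14). Nucleolar assembly factors had 9 of 46 above 0, with a median of -0.08 (15 and 31 of 46 in those 2 settings), led by Utp14a (-0.24 ± 0.27), Nolc1 (-0.24 ± 0.22) and Rrs1 (-0.21 ± 0.14). Elongation factors and other transcripts with a terminal oligopyrimidine tract had 11 of 16 above 0, with a median of 0.05 (13 of 16 after quantile normalization and 4 of 16 with arrays centred on their median). With that centring 26.8% of all tested genes were above 0.

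Of the elongation and oligopyrimidine tract list, Hnrnpa1 was at 0.51 ± 0.28, with mulberry 1 (3.10) and mulberry 5 (2.52) its highest arrays. Nap1l1 was at 0.20 ± 0.19 and Eif4b at 0.17 ± 0.23. Genes that control ribosomal protein output through mTOR, S6 kinases, Myc and p53 had 11 of 25 above 0 and a median of -0.02 (16 of 25 without mulberry 1 and mulberry 5). The largest were the kinase Rps6ka1 (0.48 ± 0.26), the translation inhibitor Eif4ebp2 (-0.36 ± 0.37) and the mTOR inhibitor Deptor (-0.27 ± 0.27). Rps6ka1 was also highest on mulberry 1 (1.83) and mulberry 5 (1.35). Of 9 non-coding hosts of small nucleolar RNAs only Snhg3 was measured, at 0.01 ± 0.25.

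A small share of the genes outside the family followed the same array pattern closely. Of 17754 other tested genes 35 (0.197%) had a Pearson r above 0.9 with the member mean over the 10 arrays. The highest belonged to the proteasome genes Psmb4 (0.95) and Psma7 (0.94), to Tomm7 of the mitochondrial import pore (0.95), and to 2 array names without a gene symbol, ENSMUST00000085344 (0.96) and NAP018080-001 (0.94). All of these values share the scaling of the arrays and are given without a p.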

How the data were processed

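The members and gene lists were chosen with earlier results of these data known. Per the file headers, the deposited scanner tables gave a background-corrected Cy3 intensity for every spot, with no scaling between arrays. The submitters' processing notes name Agilent Feature Extraction, version 10.1.1.1. The deposited series table held a linear intensity per gene symbol, as its values show; its normalization by the authors is not given in the sources used. The file headers name an older assembly than GRCm38.p6, which was used only for names and start sequences.

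Outlier spots were dropped and log2 intensities averaged per probe, minus the 75th percentile of the array. Probes were named through RefSeq accessions (25070 of 41128). A gene took its probe with the highest mean. A gene entered the test if this probe exceeded background clearly (the scanner's own call) in 4 or more of the 5 arrays of either group. The test was limma 3.58.1 in R 4.3.3 (lmFit, eBayes, two-sided) over 10 arrays, with data.table, version 1.17.8, for input and Benjamini-Hochberg adjustment over all genes at 0.05. Figures used matplotlib 3.10.9 and pandas 2.3.3 in Python 3.11.15. The fit was tested on simulated data.

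Named members were the 6 smallest p in each direction, the 3 largest and 3 smallest SD, the 5 with the widest gap between probes, and fixed lists. Non-members were up to 3 of each list by size, 2 mitochondrial members in each direction by p, and the 5 most like the member mean; 1 non-member is not reported here. The number of arrays limits the precision. Alternatives were other scalings, normexp background correction with an offset of 50 (on the median spot signal, as the mean spot signal was not used here), the series table, filters, probe rules, batches, the replicate number and left-out arrays. By the scanner tables' replicate numbers, same-numbered arrays had r of -0.26, -0.44, 0.41, 0.01 and -0.03. These values did not show a pairing by those numbers, and they cannot exclude one. The series table numbers its controls differently, and a pairing by its numbers was not checked.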

Additional observations from a re-analysis of the deposited data

Results flagged for a closer look

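Single arrays stood apart in 12 of 86 sets of 5 values examined, where chance gives about 4.3, and the members of such sets vary together, so the 12 are not independent. The measure is the gap between the outermost array and the next, as a share of the range of its group. Mulberry 3 was the high array for Rpl17 (gap 0.798, 6.62 against 6.38 to 6.42), Rps26 (0.776), Rpl37 (0.901), Rps25 (0.756) and Rps16 (0.85). Control 1 was the high array for Rpl17 (0.809, 6.53 against 6.23 to 6.29), Rps28 (0.842) and Rpl22 (0.887). Control 2 was the low array for Rps2 (0.853, 8.57 against 8.89 to 8.94) and Rps4x (0.75), control 4 for Rps26 (0.734) and control 3 for Rpl7l1 (0.826). Mulberry 3 and control 1 were also the arrays with the highest mean over all members under the 75th percentile.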

How the results depend on the processing

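Across 36 alternatives to the main fit 0 members passed the threshold; 353 of the 1512 named member values had the other sign, and values ran from -0.58 to 0.68. The member median of 0.01 was -0.14 with median scaling, 0.13 in the deposited table, -0.21 with the slide as a fixed block, 0.17 within scan day 1 and -0.15 within scan day 2. All genes had medians of -0.17, -0.004, -0.25, 0.01 and -0.04 in these settings. With normexp correction the member median was -0.28, where mulberry 4 had a member mean of -1.51. Without that array it was 0.05. Among alternatives chosen after seeing the data it was -0.21 within slide 3, whose 3 arrays also set the slide block value. After quantile normalization it was 0.13 within scan day 1 and 0.31 within slide 3. Leaving out 1 array in turn gave medians of -0.04 to 0.05 and 0 to 1 genes called. Array weights, and leaving out mulberry 1 and 5, each gave 1 called gene, no member. With the replicate block, by the scanner tables' numbers, the median was 0.01 and 0 genes were called.

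Signs turned for Rps19 (normexp -0.034, slide block and slide 3 -0.17, scan day 2 -0.056), Rpl17 (median scaling -0.015, normexp -0.14) and Rps15a (normexp -0.17, scan day 2 -0.093). After quantile normalization they turned for Rpl36al (0.18 within scan day 2, 0.050 within slide 3) and Rps26 (0.071 and 0.24). The cause was not tested. Slide 3 held 3 arrays, so its lone mulberry array was assumed to vary like the controls. The slide block takes its group difference from these same arrays, so it is not a separate check. With 5 arrays per group, differences inside the printed intervals could not be resolved.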
